A study of Homo sapiens with 6 samples.

Results

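The 36 genes described here are ligands, latent binding proteins, receptors, SMADs, inhibitors and target genes of the TGF-beta and BMP pathways. They were chosen by symbol for their role in the pathways, with earlier results of these data known. Of these, 36 of 36 were found among the 28395 genes of the deposited table. TC28a2, a human chondrocyte line that was immortalised, was transfected with a control vector or with a ZEB1 overexpression vector, and RNA was taken 48 h later for 3 libraries of each. ZEB1 is a zinc finger transcription factor known as a repressor of epithelial genes and as a partner of SMAD proteins. Both groups are the same line and differ in the labels by the vector, and the share of cells that took up a vector is not given in the sources used here. The labels do not say that the replicates were separate cultures, so a p-value here reflects no more than the spread of these libraries, which may be technical. Of the 12 chondrocyte markers, SOX9 had enough counts to be tested, and COL2A1 and ACAN, which define cartilage matrix, had 0 counts in every ZEB1 library and 0 to 8 in each control.

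TGF-beta is secreted in a latent complex with latent TGF-beta binding proteins, and once released it binds a type II receptor that phosphorylates a type I receptor. The type I receptor phosphorylates SMAD2 and SMAD3 for TGF-beta, or SMAD1 and SMAD5 for BMPs, and these enter the nucleus with SMAD4. Inhibitory SMADs, SKI family repressors and SMURF ubiquitin ligases limit the signal, and several of them are themselves induced by it. In cartilage, TGF-beta signalling is known to maintain matrix synthesis and restrain hypertrophy, while BMP signalling promotes chondrocyte differentiation.

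The promoters of 34 of the 36 genes were found in the RefSeq table of GRCh38.p14, as windows of 300 bases from 250 before to 50 after 1 annotated start of each gene. They were searched for CACCTG, the E-box that ZEB1 binds, on either strand (CACCTG or CAGGTG). LTBP3 and SMURF2 were the 2 genes with a match, 5.88% of the 34 windows, against 20.6% of all 35116 windows. The windows of these genes were richer in G and C, with a median of 68.8% against 58.7% for all. Both windows are shown because they hold the motif, in capitals as CAGGTG, with its first base at position -247 (LTBP3) and -245 (SMURF2) from the start. Each window is written 5′ to 3′ in the direction of its gene. The last 40 bases of 21 of the 34 windows were found in a GENCODE v29 transcript of the gene, which was so for SKIL and not for LTBP3 or SMURF2, so the RefSeq starts of these genes have no such match.
LTBP3 (chr11:65558310-65558609, minus strand): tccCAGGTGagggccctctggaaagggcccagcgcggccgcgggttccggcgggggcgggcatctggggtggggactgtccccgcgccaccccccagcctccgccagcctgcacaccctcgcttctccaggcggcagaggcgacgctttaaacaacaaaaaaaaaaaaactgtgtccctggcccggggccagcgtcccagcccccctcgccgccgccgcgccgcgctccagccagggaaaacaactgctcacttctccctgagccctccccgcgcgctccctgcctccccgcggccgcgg
SMURF2 (chr17:64662258-64662557, minus strand): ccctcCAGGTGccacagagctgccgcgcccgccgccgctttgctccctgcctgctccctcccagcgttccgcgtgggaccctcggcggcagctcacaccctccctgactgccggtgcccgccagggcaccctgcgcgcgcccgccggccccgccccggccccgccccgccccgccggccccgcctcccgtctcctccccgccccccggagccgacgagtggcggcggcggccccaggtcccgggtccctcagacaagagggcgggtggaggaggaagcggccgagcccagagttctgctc
SKIL is shown because it had the smallest p-value among the 36 genes. Its window held no CACCTG and 1 copy of GGCGCC, a GC-rich SMAD element that reads the same on both strands, in capitals at position -190.
SKIL (chr3:170357465-170357764, plus strand): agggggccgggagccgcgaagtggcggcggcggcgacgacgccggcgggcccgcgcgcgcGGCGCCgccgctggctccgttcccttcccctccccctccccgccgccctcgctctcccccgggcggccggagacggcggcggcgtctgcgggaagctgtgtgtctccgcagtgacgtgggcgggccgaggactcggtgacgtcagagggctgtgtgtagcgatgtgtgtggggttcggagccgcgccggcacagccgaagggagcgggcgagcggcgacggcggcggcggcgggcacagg
GGCGCC was found in 12 of the 34 windows (35.3%) against 19.2% of all windows. This element is made of G and C alone, and the 34 windows were richer in both (median 68.8% against 58.7%). The part of this composition in the share was not tested. CAGACA, another SMAD element, was found on either strand in 7 of the 34 (20.6%) against 16.9%. A match describes the letters of these windows and is not a measured binding site.

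No gene among the 36 passed the test, and the values with the ZEB1 vector lay on both sides of the control level. Of the 33 that had enough counts, 16 were higher and 17 lower with the ZEB1 vector. Their median log2 fold change (ZEB1 vector minus control vector) was -0.020, beside -0.014 over all 11329 genes tested. In edgeR's quasi-likelihood test 0 of the 33 had an adjusted p of 0.05 or less, where 0.00883% of all tested genes did, namely ZEB1 itself. At an unadjusted p under 0.05 there was 1 gene, SKIL, which was higher, where 9.4% of all tested genes had such a p (5.83% higher and 3.57% lower). DESeq2 called 0 of the 3 genes for which it gave an adjusted p (background 7.49%), and limma-voom with sample quality weights called 0 of 33 (background 1.39%).

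The 95% intervals of 21 of the 33 genes lay within 1 log2 unit of 0, so that a change of 2-fold or more lay outside them. For the other 12, a 2-fold change in at least 1 direction was not excluded by the interval. All 3 ZEB1 libraries lay above, or all below, every control in 4 of the 33 genes, or 12.1%, where 15.1% of all tested genes did so. SKIL was the gene above the controls (background for higher 6.96%), and LTBP3, SMURF1 and TGFBI were below them (background for lower 8.16%). These shares are near or under the background and are no result about the pathway.

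**Figure D1:**
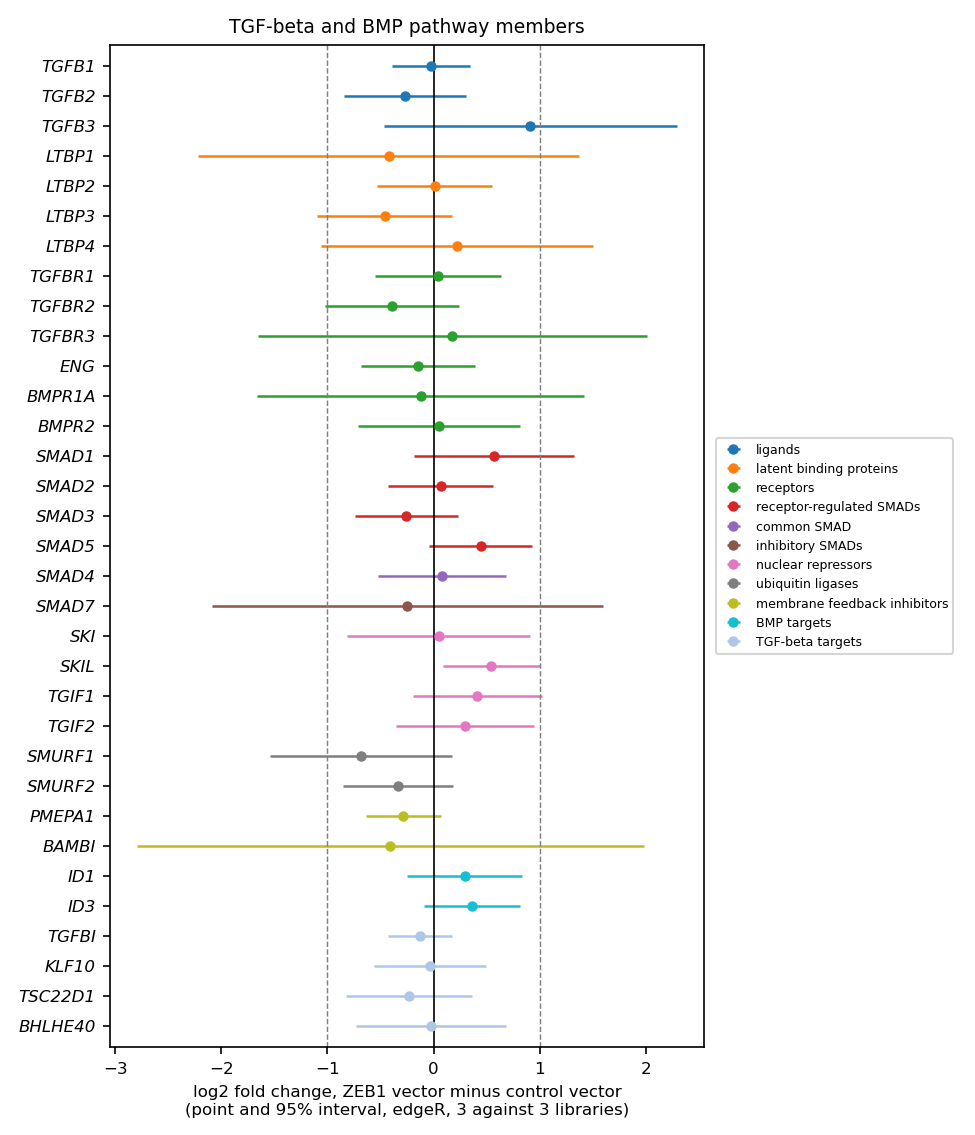
Log2 fold change (horizontal axis, ZEB1 vector minus control vector) of the 33 tested TGF-beta and BMP pathway genes, coloured by role, each point with its 95% interval from edgeR over 3 against 3 libraries and dashed lines at a 2-fold change. The interval of SKIL, 0.09 to 1.00, is the only 1 of the 33 that does not span 0.

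ZEB1 rose from 203, 114 and 131 counts in control replicates 1, 2 and 3 to 13805, 21844 and 23143 in the ZEB1 replicates (log2 fold change 8.79, SE 0.31, edgeR adjusted p 2.37e-13). Counts from the vector and the endogenous gene were not separated. Library totals were 5359200 to 5878640 in the controls against 1277632, 1621270 and 3316228 in ZEB1 replicates 1, 2 and 3. The 36 genes together took 0.164% to 0.174% of the counts in the controls against 0.137%, 0.143% and 0.172% in the ZEB1 replicates. A count of 3 corresponded to 0.481 to 0.547 CPM (the count relative to the TMM-scaled library size) in the controls and to 2.67, 1.93 and 0.894 CPM in ZEB1 replicates 1, 2 and 3. The number of all genes called depended on ZEB1 replicate 3, with 409 without it and 1 with it. Of 6 endothelial markers, ENG made up most of the summed CPM (36.6 to 47.5 in the controls and 36.4 to 49.7 in the ZEB1 libraries). PECAM1, the other one tested, had 1.44, 1.09 and 1.80 CPM in the controls and 3.55, 7.72 and 6.55 CPM with the ZEB1 vector, from 4 to 22 counts per library (log2 fold change 2.04, SE 0.87, edgeR adjusted p 0.462). Its groups did not overlap, VWF, CDH5, KDR and TEK had 0 to 6 counts per library, and the part of such cells in the results was not tested. Summed CPM of the leukocyte, epithelial and smooth muscle markers overlapped between the groups. In these bulk samples, fewer cells of a kind and less RNA per cell cannot be told apart.

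TGFB1 encodes the ligand that gives the family its name. It had 184, 146 and 167 CPM in control replicates 1, 2 and 3, against 158, 127 and 201 CPM in replicates 1, 2 and 3 with the ZEB1 vector. The groups overlapped in full, and the log2 fold change was -0.022 (SE 0.18, interval -0.39 to 0.35). TGFB2, a second isoform, had 54.1, 50.7 and 46.8 CPM in the controls and 20.4, 49.5 and 52.1 CPM with the ZEB1 vector. Replicate 1 of the ZEB1 group was thus the low library for TGFB2, and without it the log2 fold change went from -0.27 to 0.0077. TGFB3, the third isoform, had 18, 24 and 39 counts in the controls against 3, 19 and 34 in the ZEB1 libraries. Its log2 fold change of 0.91 had an SE of 0.66 and an interval of -0.46 to 2.29, which leaves its direction unresolved at this depth.

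The latent binding proteins hold the ligand in the matrix. LTBP3, whose promoter window holds the E-box, had 29.03, 26.6 and 27.4 CPM in the controls and 17.8, 23.8 and 18.8 CPM with the ZEB1 vector. All 3 ZEB1 libraries lay below the controls, with means of 27.7 ± 1.23 and 20.1 ± 3.23 CPM (SD, n = 3). The log2 fold change of -0.46 (SE 0.30) had an edgeR adjusted p of 0.693. LTBP3 (chromosome 11, 65538559 to 65558359, GRCh38.p14) is overlapped by LOC124902823 in the annotation, and reads of both cannot be told apart without a stated strand setting. LTBP2 had means of 34.5 CPM in both groups and a log2 fold change of 0.0095 (SE 0.26). LTBP1 and LTBP4 were thinly counted, with 1 to 36 and 12 to 53 counts per library and log2 fold changes of -0.42 (SE 0.86) and 0.22 (SE 0.61).

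Among the receptors, the type I receptor gene TGFBR1 had 30.8, 25.0 and 29.5 CPM in the controls and 34.7, 23.1 and 30.4 CPM with the ZEB1 vector (log2 fold change 0.042, SE 0.29). The type II receptor gene TGFBR2 had 26.5, 40.1 and 28.4 CPM in the controls and 30.2, 21.9 and 21.4 CPM with the ZEB1 vector (log2 fold change -0.39, SE 0.30). Control replicate 2 was the high library for TGFBR2, and without it the log2 fold change was -0.18. ENG, the co-receptor endoglin, had 46.0, 43.9 and 33.8 CPM in the controls and 27.5, 41.2 and 41.1 CPM with the ZEB1 vector (log2 fold change -0.15, SE 0.26). The groups overlapped for all 3 of these genes. BMPR2, the type II receptor for BMPs, had a log2 fold change of 0.049 (SE 0.37). BMPR1A, a type I receptor for BMPs, had 42, 36 and 47 counts in the controls against 0, 22 and 16 in the ZEB1 libraries. Its 3 ZEB1 libraries thus ranged from 0 to 14.1 CPM around controls of 6.56 to 7.67 CPM, and its log2 fold change of -0.12 had an SE of 0.74. TGFBR3, the co-receptor betaglycan, had 5 to 18 counts per library and a log2 fold change of 0.18 (SE 0.88).

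The SMADs that respond to BMPs were at higher mean levels with the ZEB1 vector, and those that respond to TGF-beta were near or below the control level, with no SMAD past the threshold. SMAD5 had 40.4, 50.1 and 38.7 CPM in the controls and 67.5, 45.0 and 63.5 CPM with the ZEB1 vector. ZEB1 replicates 1 and 3 lay above all controls and replicate 2 within them, for a log2 fold change of 0.45 (SE 0.23, edgeR adjusted p 0.587). SMAD1 had 21.8, 21.3 and 18.6 CPM in the controls and 53.3, 23.8 and 18.5 CPM with the ZEB1 vector. Its log2 fold change of 0.57 (SE 0.36) rested on ZEB1 replicate 1, the shallowest library, and was 0.014 without it. SMAD2 had means of 40.9 ± 3.11 and 42.7 ± 5.15 CPM (SD, n = 3), and its log2 fold change was 0.067 (SE 0.24). SMAD3 had 69.3, 74.2 and 62.7 CPM in the controls and 68.4, 36.01 and 67.6 CPM with the ZEB1 vector (log2 fold change -0.26, SE 0.23). Replicate 2 was the low ZEB1 library for SMAD3, and the other two lay among the controls. SMAD4, which forms complexes with all of these SMADs, had means of 25.0 ± 1.47 and 26.3 ± 2.05 CPM (SD, n = 3) and a log2 fold change of 0.084 (SE 0.29). Overlapping antisense genes are annotated for SMAD1, SMAD3 and SMAD5.

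The inhibitory SMADs were thinly counted. SMAD7, which blocks type I receptors and is itself a target of the pathway, had 21, 25 and 24 counts in the controls against 0, 8 and 14 in the ZEB1 libraries (log2 fold change -0.25, SE 0.88). In CPM, ZEB1 replicates 2 and 3 (5.14 and 4.17) lay near the controls (3.37 to 4.56), and replicate 1, with 0 counts, allowed up to 2.67 CPM. SMAD6, the inhibitor tied to BMP signalling, had 11 counts in the controls together and 7 in the ZEB1 libraries together, too few to be tested.

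**Figure D2:**
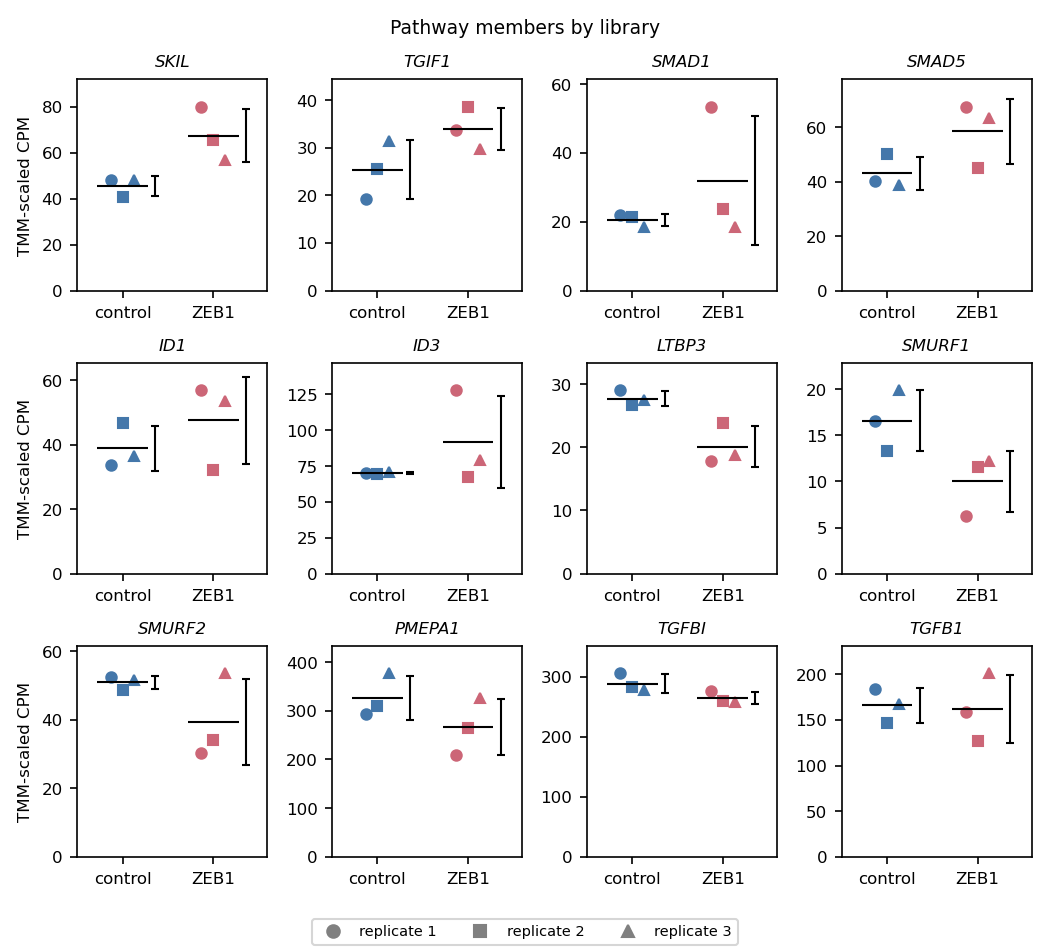
TMM-scaled CPM (vertical axes, each from 0) of 12 pathway genes in the 3 control (blue) and 3 ZEB1 (red) libraries, marked by replicate, with the mean as a line and the SD as a bar. The ZEB1 libraries lie above all controls for SKIL and below them for LTBP3, SMURF1 and TGFBI, while SMAD1 and ID3 are high in ZEB1 replicate 1.

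SKIL encodes SnoN, a repressor that binds SMAD complexes and is degraded and then re-induced upon TGF-beta signalling. It had 48.1, 40.7 and 48.3 CPM in the controls and 80.0, 65.6 and 56.9 CPM with the ZEB1 vector, from 223 to 300 counts and 90 to 191 counts per library. All 3 ZEB1 libraries lay above the controls, and the ratio of the means, 67.5 ± 11.7 against 45.7 ± 4.36 CPM (SD, n = 3), was 1.48. SKIL had a log2 fold change of 0.55 (SE 0.22), and its unadjusted edgeR p of 0.0211 became 0.415 after adjustment and did not pass. Over 16 alternative settings the log2 fold change was 0.31 to 0.66, and over the 15 of these that gave it an adjusted p, that p was 0.121 to 1.00. SKIL (chromosome 3, 170357715 to 170396849, GRCh38.p14) is overlapped by no other annotated gene.

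The other nuclear repressors had log2 fold changes above 0 without passing. TGIF1, a homeodomain corepressor of SMADs, had 19.2, 25.5 and 31.5 CPM in the controls and 33.8, 38.6 and 29.8 CPM with the ZEB1 vector (log2 fold change 0.41, SE 0.29). TGIF2, its paralog, had 18.7, 46.3 and 39.6 CPM with the ZEB1 vector around controls of 25.3 to 35.7 CPM (log2 fold change 0.30, SE 0.31). SKI, the founding member of the SKI family, had 5.33, 21.2 and 28.6 CPM with the ZEB1 vector and 17.5 to 20.1 CPM in the controls. Its log2 fold change was 0.047 (SE 0.42), and its ZEB1 libraries lay on both sides of the controls. As a group the 4 repressors had a median of 0.35, with 4 of 4 above 0, beside -0.014 over all genes, of which 51.5% were below 0. Their mean log2 CPM in ZEB1 replicate 1 was below every control, at -0.27 relative to the control mean. SKI kept its sign in 10 of 16 alternative settings. With library size as the only scaling the log2 fold change of SKI was below 0 (-0.056) and those of SKIL, TGIF1 and TGIF2 stayed above it.

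SMURF1 and SMURF2 encode ubiquitin ligases that mark receptors and SMADs for degradation. SMURF1 had 16.5, 13.3 and 19.9 CPM in the controls and 6.22, 11.6 and 12.2 CPM with the ZEB1 vector, from 73 to 122 and 7 to 41 counts. All 3 ZEB1 libraries lay below the controls, and the log2 fold change of -0.68 (SE 0.41) had an edgeR adjusted p of 0.651. SMURF2, whose promoter window holds the E-box, had 52.5, 48.9 and 51.7 CPM in the controls and 30.2, 34.1 and 53.6 CPM with the ZEB1 vector. Replicates 1 and 2 lay below the controls and replicate 3 above them, for a log2 fold change of -0.34 (SE 0.25). Without ZEB1 replicate 3 it was -0.67 (edgeR adjusted p 0.172). LTBP3 and SMURF2, the genes with CACCTG on either strand of their window, thus had log2 fold changes of -0.46 and -0.34. The 29 tested genes whose window lacked this hexamer ranged from -0.68 to 0.91 with 14 below 0. With 2 genes this is a description only.

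Among the feedback inhibitors at the membrane, PMEPA1, which sequesters receptor-regulated SMADs, had 293, 309.9 and 377 CPM in the controls and 209.7, 264 and 326 CPM with the ZEB1 vector. The groups overlapped through ZEB1 replicate 3, the deepest ZEB1 library, and the log2 fold change was -0.28 (SE 0.17, interval -0.64 to 0.07). Without that library it was -0.47 (edgeR adjusted p 0.127), and with the shallower ZEB1 replicates 1 and 2 left out it was -0.011. PMEPA1 is overlapped by the antisense gene NKILA. BAMBI, a decoy receptor without a kinase domain, had 0 to 15 counts per library and a log2 fold change of -0.41 (SE 1.14). LDLRAD4, a relative of PMEPA1, had 0 counts in the controls and 2 in the ZEB1 libraries together.

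The BMP targets ID1 and ID3 encode inhibitors of helix-loop-helix factors and are induced through SMAD1 and SMAD5. ID3 had 70.1, 69.5 and 70.7 CPM in the controls and 128, 67.5 and 79.5 CPM with the ZEB1 vector. The controls were nearly equal, ZEB1 replicate 1 was far above them and replicate 2 just below, for a log2 fold change of 0.37 (SE 0.22). Without ZEB1 replicate 1 it was 0.075. ID1 had 33.5, 46.7 and 36.4 CPM in the controls and 56.9, 32.2 and 53.6 CPM with the ZEB1 vector (log2 fold change 0.29, SE 0.26). SMAD1, SMAD5, ID1 and ID3 were all highest in ZEB1 replicate 1, at 53.3, 67.5, 56.9 and 128 CPM. SMAD5, ID1 and ID3 were lowest of the ZEB1 libraries in replicate 2. This replicate 1 also had the fewest counts, 1277632, and the part of depth in these values was not tested. ID2 had 0 to 17 counts per library, too few to be tested.

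Targets of TGF-beta among the 36 genes differed little. TGFBI, a secreted matrix protein named for its induction by TGF-beta, had 305, 283 and 277 CPM in the controls and 276, 259 and 258 CPM with the ZEB1 vector. All 3 ZEB1 libraries lay below the controls, by a margin under 1 CPM, with means of 288 ± 15.1 and 264 ± 10.6 CPM (SD, n = 3). Its log2 fold change was -0.13 (SE 0.14, interval -0.43 to 0.17). KLF10, an early response transcription factor, had 35.3, 34.6 and 34.6 CPM in the controls and 36.4, 32.2 and 33.7 CPM with the ZEB1 vector (log2 fold change -0.036, SE 0.25). These 6 libraries were close to each other. TSC22D1, a leucine zipper protein, had means of 30.4 ± 3.27 and 25.8 ± 3.42 CPM (SD, n = 3) in control and ZEB1 libraries, and its log2 fold change was -0.23 (SE 0.28). BHLHE40, a helix-loop-helix repressor, had 23.9, 25.9 and 24.3 CPM in the controls and 14.2, 37.3 and 21.1 CPM with the ZEB1 vector, which averaged to a log2 fold change of -0.020 (SE 0.34).

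**Figure D3:**
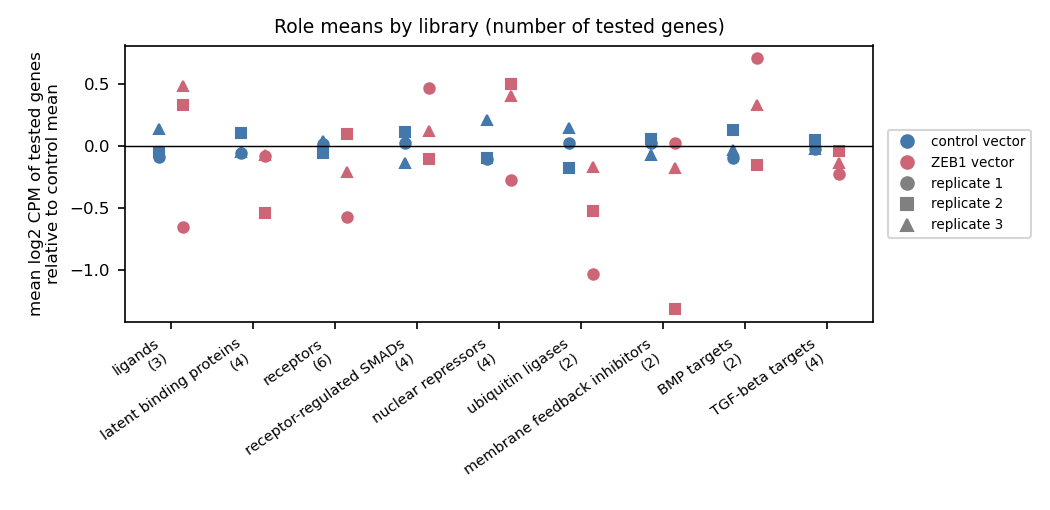
Mean log2 CPM of the tested genes of each role (vertical axis, relative to the mean of the control libraries) in the 3 control (blue) and 3 ZEB1 (red) libraries, marked by replicate, with the number of genes in brackets. The ZEB1 replicates are spread more widely than the controls in each role, as for the ligands, where replicate 1 is at -0.65 and replicate 3 at 0.49, and the low receptor value of replicate 1 (-0.57) comes from BMPR1A at 0 counts.

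The ZEB1 libraries were spread more widely than the controls in each role. Mean log2 CPM over the 33 genes, relative to the control mean, was -0.29, -0.081 and 0.050 in ZEB1 replicates 1, 2 and 3, while the controls ranged from -0.031 to 0.022. Without the 3 genes at 0 counts in a library (BMPR1A, SMAD7 and BAMBI), a choice made after seeing the data, it was -0.11, -0.055 and 0.081. For the 6 receptors it was -0.57, 0.095 and -0.21, where the value of replicate 1 came from BMPR1A at 0 counts, and for the 5 others it was 0.092, -0.080 and -0.15. For the nuclear repressors it was -0.27, 0.50 and 0.41. For the ubiquitin ligases it was -1.04, -0.53 and -0.17, and for the BMP targets 0.71, -0.15 and 0.33. Replicate 1 was thus the low library for the ligases and the high one for the BMP targets. Over all 11329 genes the same measure was -0.20, -0.099 and -0.036 in these libraries, in the order of their depth, and -0.058, -0.035 and -0.024 over the 10462 genes with a count in every library.

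Of 119 other genes of the pathways, all present in the table, 76 had enough counts and 0 passed edgeR. At an unadjusted edgeR p under 0.05 there were 15, with 1 higher and 14 lower (background 9.4%, with 5.83% higher and 3.57% lower). Targets of the pathway made up 10 of these 15. Of 25 tested target genes outside the 36, 22 were lower, 10 of them at an unadjusted p under 0.05 (background for lower 3.57%), and their median log2 fold change was -0.43 beside -0.014 over all genes, of which 51.5% were lower. These targets also respond to other signals, and earlier results for several of them were known when the list was written. ANGPTL4, an angiogenic factor, had 60.6, 60.5 and 84.0 CPM in the controls and 38.2, 18.0 and 38.4 CPM with the ZEB1 vector (log2 fold change -1.10, SE 0.27, edgeR adjusted p 0.182). CDKN1A, which encodes the cell cycle inhibitor p21, and ITGA5, the fibronectin receptor chain, had log2 fold changes of -0.68 and -0.54 and an edgeR adjusted p of 0.235 each. DESeq2 called both, with adjusted p of 0.0468 and 0.0370, and limma-voom with quality weights called ANGPTL4 (adjusted p 0.0213), as did edgeR without the filter on low counts (adjusted p 0.00449). Without ZEB1 replicate 3 edgeR gave ANGPTL4 and ITGA5 adjusted p of 0.0225 and 0.0162, past the threshold. Of all genes with an adjusted p, DESeq2 called 174 of 2324 (7.49%) and limma-voom with quality weights 157 of 11329 (1.39%). The edgeR test called 127 of 18319 genes without that filter and 409 of 12095 without ZEB1 replicate 3. Over these targets the log2 fold change ran from -1.10 for ANGPTL4 to 0.42 for TGM2, a transglutaminase with 9.53 to 15.1 CPM in the ZEB1 libraries and 9.12 to 9.46 CPM in the controls.

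Of 7 tested antagonists 6 were lower, where 51.5% of all tested genes were lower. Among them was FSTL1, a secreted follistatin-like protein, with 145, 136 and 139 CPM in the controls and 67.5, 108 and 109 CPM with the ZEB1 vector (log2 fold change -0.54, SE 0.19, edgeR adjusted p 0.303). FST, the activin antagonist follistatin, had 48, 52 and 45 counts in the controls against 4, 3 and 7 in the ZEB1 libraries (log2 fold change -1.74, SE 0.69, edgeR adjusted p 0.411). The BMP antagonist GREM1 and the proteoglycan BGN had log2 fold changes of -0.20 and -0.39. Among proteins that release or hold latent TGF-beta, 7 of 9 were lower. ITGB5 was at -0.45 (edgeR adjusted p 0.528), and THBS1, ITGAV and FBN1 were at -0.15, -0.14 and -0.23. Intracellular regulators were split, 14 higher and 11 lower. RBL1, a pocket protein that acts with SMADs, was at 0.55 (edgeR adjusted p 0.476), and PPP1R15A, TAB2 and TAB1 were at -0.39, -0.42 and -0.64. Of 11 other receptors and co-receptors 5 were tested, with ACVR2B, RGMB and ACVR1B at 0.65, -0.48 and -0.44. The activin receptor gene ACVR2A had 18, 27 and 21 counts in the controls against 0, 0 and 4 in the shallower ZEB1 libraries. In CPM these were 2.89, 4.92 and 3.43 against 0, 0 and 1.19. The log2 fold change of ACVR2A was -2.63 (SE 1.16, edgeR adjusted p 0.485), and ORC4 overlaps it in the annotation. Of 20 other ligands 5 were tested, and GDF6, GDF11, GDF15 and AMH had log2 fold changes of 2.41, -0.20, -1.06 and -0.65. GDF6 had 0 to 12 counts per library (SE 1.24, edgeR adjusted p 0.583). GDF15 had 0 to 28 counts per library (SE 1.02, edgeR adjusted p 0.814), and AMH had 2 to 94 (SE 0.50, edgeR adjusted p 0.755).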

How the data were processed

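RNA of 6 TC28a2 libraries was measured by DRUG-seq, a multiplexed RNA-seq method of low cost. The authors deposited raw counts per Entrez gene, and the submitters' processing notes name HISAT2, Subread, featureCounts and GRCh38. Strand setting, annotation release and collapsing of molecular identifiers were not found stated in the labels, and uncollapsed reads would make counting limits too narrow. RefSeq (GRCh38.p14) gave symbols for 27745 IDs and left 650 unmatched, and other annotated genes overlapped 22 of the 36 members.

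Counts were tested with edgeR 4.0.16 (R 4.3.3) by its two-sided quasi-likelihood test (robust fit, filterByExpr, TMM) with group as the only term. P-values were adjusted by Benjamini-Hochberg over all 11329 genes that passed the filter, at a threshold of 0.05. Approximate standard errors were derived from each log2 fold change and F statistic, and log2 CPM had a prior count of 2. Alternatives were RLE factors, library size alone, no filter, a mean count of at least 20, thinning to 1277632 counts, a replicate block, DESeq2 1.42.0, limma-voom (limma 3.58.1) with quality weights, leaving out libraries, and leaving out ZEB1. The edgeR step was tested on simulated data. No library pair of a group agreed within sampling noise (chi-square per degree of freedom 6.52 to 12.2).

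The members, gene lists and alternatives were chosen with earlier results of these data known. All members are reported. Of the other pathway genes, the up to 4 of each list with the smallest unadjusted p are named. One gene that this rule takes is not reported here.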

Additional observations from a re-analysis of the deposited data

How the results depend on the processing

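Under the 16 alternatives the edgeR, DESeq2 and limma-voom tests called 0 of the pathway genes they tested (29 to 36 of the 36), and the median of these stayed within 0.173 of its value, the SD of the ZEB1 libraries' means. DESeq2 gave an adjusted p to 3 of its 33. Library size as the only scaling moved the median of all genes to -0.14 and that of the pathway genes also to -0.14, with 10 higher and 23 lower. The count of all genes past the threshold was 127 without a filter, 174 with DESeq2, 157 with limma-voom with quality weights, 2 with ZEB1 replicates 1 and 2 left out and 0 with ZEB1 left out of the table. It was 1 to 409 on leaving out single libraries. The lone ZEB1 library was there assumed to vary like the controls. Signs were kept by 16 of 33 tested pathway genes in every alternative that gave a value.

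With library size as the only scaling, LTBP2, TGFBR1, BMPR2, SMAD2, SMAD4 and SKI had log2 fold changes of -0.12, -0.092, -0.088, -0.060, -0.044 and -0.056. With thinning, TGFB1, LTBP2, BMPR2, SMAD4 and SKI had 0.068, -0.11, -0.13, -0.027 and -0.063, and without a filter LTBP2 had -0.011. LTBP2, TGFBR1 and SKI had -0.0067, -0.0053 and -0.0052 with quality weights. With ZEB1 replicates 1 and 2 left out, TGFB1, TGFB2, LTBP1, LTBP4, TGFBR3, BMPR2, SMAD1, SMAD7, SMURF2 and AMH had 0.27, 0.039, 0.38, -0.50, -0.26, -0.18, -0.16, 0.074, 0.065 and 0.048. On leaving out single libraries the ranges were -0.23 to 0.12 for TGFB1, -0.50 to 0.0077 for TGFB2, -1.47 to 0.023 for LTBP1, -0.13 to 0.13 for LTBP2, -0.096 to 0.52 for LTBP4, -0.071 to 0.17 for TGFBR1 and -0.058 to 0.40 for TGFBR3. They were -1.22 to 0.35 for BMPR1A, -0.17 to 0.29 for BMPR2, -0.013 to 0.14 for SMAD2, -0.64 to 0.22 for SMAD7, -0.45 to 0.42 for SKI, -1.19 to 0.16 for BAMBI, -0.43 to 0.20 for BHLHE40, -0.30 to 0.0034 for GDF11 and -0.55 to 0.047 for FBN1. Apart from these constructions, the cause was not tested.

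The deviations of same-numbered libraries correlated at -0.032, -0.0095 and 0.0087, and those of libraries with different numbers at -0.048 to 0.046. These values do not settle whether equal replicate numbers share a culture or day, which the labels do not state. With the replicate number as a block edgeR called 1 gene and 0 pathway genes, the median of these was -0.044, and LTBP2 and SKI had log2 fold changes of -0.0041 and -0.15.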
